A study of Mus musculus with 6 samples.

Results

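Imprinted genes are transcribed mainly from the allele inherited from one parent. RNA levels of 42 of them were examined in the cerebellum of mouse pups at postnatal day 1, whose mothers had received a moderate or a high amount of folic acid (FA). The genes were taken from a list of known imprinted genes by their symbol in the scanner files and placed by imprinted cluster and by the parental allele known to be expressed. A probe was found for 41 of the 42, the exception being Rian, a noncoding RNA of the Dlk1-Dio3 cluster, and these 41 genes had 76 of the 55681 probes of the array. The 34797 gene symbols of the array served as the background, of which 25537 were measured well enough for testing, 39 imprinted genes among them.

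In each imprinted cluster, DNA methylation laid down in the egg or the sperm marks 1 parental copy of a control region, and the mark then decides which copy of the neighbouring genes is used. Many of the genes set growth before birth, and in the developing brain several act in neurons, among them the genes lost in Prader-Willi and Angelman syndromes. Folate supplies methyl groups, including those used for DNA methylation, so whether its supply in pregnancy moves these genes is the question that the comparison addresses. The arrays measured total RNA of each gene, not which allele it came from.

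C57BL/6J dams received an amino acid-based diet with 2 mg/kg or 20 mg/kg FA from one week before mating until the end of pregnancy. Each array held cerebellum RNA pooled from 3 pups of one sex, each pup from a different dam. There was 1 array at 2 mg/kg and 2 arrays at 20 mg/kg in males, and the same in females, 6 arrays in all, and per the labels the RNA of the 20 mg/kg pools came from different batches. One label field names the tissue as whole brain, whereas the titles name cerebellum. With 1 array per sex at 2 mg/kg, the spread within that diet was not measured, and each test assumes that it equals the spread between the 20 mg/kg arrays.

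The array labelled female 20 mg replicate 2 stood apart from the others. Signals well above background made up 23.3% of its probes and 51.1% to 71.9% of those on the other 5, and its median processed signal was 5.14 against 39.0 to 162. Both 2 mg/kg arrays and female 20 mg replicate 1 lay on the same slide, female replicate 2 and male replicate 1 on a slide scanned on an earlier day, and male replicate 2 on a slide of its own. In males, dose and slide therefore cannot be told apart. In females, only replicate 1 shared a slide with its 2 mg/kg array. Xist, the RNA of the inactive X chromosome, was at 9.67 and 10.84 on the log2 scale on female 2 mg and female 20 mg replicate 1, at 7.27 and not well above background on female 20 mg replicate 2, and at the floor of 3.32 on the male arrays. Of 12 cerebellar marker genes 11 had a probe, and 7 to 11 of these were well above background per array. Markers of neighbouring brain parts differed between arrays. The summed signal of 8 hypothalamus markers was 2428 on female 2 mg and 2197 on female 20 mg replicate 2 against 562 to 740 on the other 4, with Avp at 9.31 and Nkx2-1 at 7.22 on female 2 mg, but on female 20 mg replicate 2 only 1 of the 8 was well above background and their median was 0.41 below female 2 mg. The summed signal of 8 choroid plexus markers was 6139 on female 2 mg against 27552 to 81944 on the other 5, with Ttr at 11.21 on female 2 mg and at 16.16 on female 20 mg replicate 1. The summed signal of 8 forebrain markers was 2912 on male 2 mg, 7279 on male 20 mg replicate 1 and 2665 on replicate 2, and 7312 on female 2 mg, 16521 on female 20 mg replicate 1 and 2627 on replicate 2, where 1 of the 8 was well above background. These differences run along the comparisons of both sexes, and their part in the values of the imprinted genes was not tested. As the samples are bulk tissue, fewer cells of a type and less RNA per cell cannot be told apart.

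**Figure D1:**
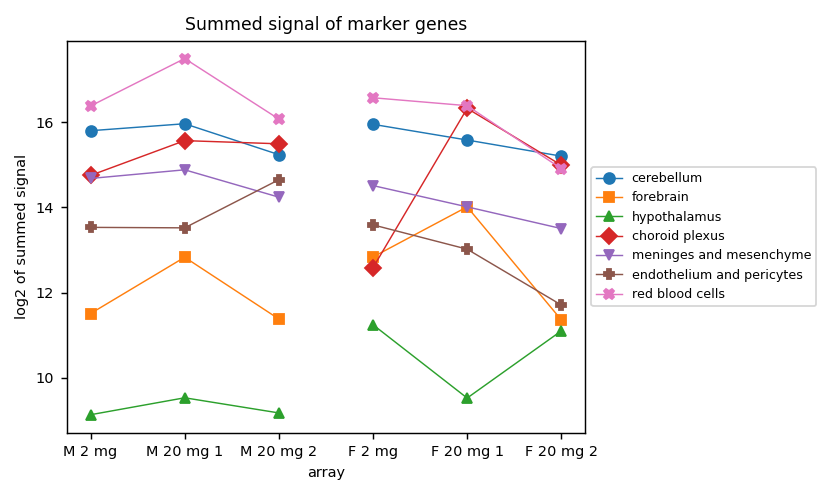
Summed signal of marker gene lists on each array (M, males, F, females; vertical axis log2 of the summed normalized signal, lines join arrays of one sex). Female 2 mg had the lowest choroid plexus sum, 6139, and the highest hypothalamus sum, 2428.

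The probes of 2 noncoding RNAs are shown because several probes of one transcript allow each reading to be checked against another. H19, a maternally expressed noncoding RNA that shares its control region with the growth factor gene Igf2, had 7 probes of 60 bases on the minus strand of chr7:149761492-149762476 (mm9, the build of the scanner files). Each sequence is given 5′ to 3′ as the array file lists it, numbered along the transcript, in lower case with no part marked.
H19 probe 1: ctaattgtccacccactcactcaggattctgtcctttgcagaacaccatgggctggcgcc
H19 probe 2: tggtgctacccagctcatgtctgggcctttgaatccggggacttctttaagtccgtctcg
H19 probe 3: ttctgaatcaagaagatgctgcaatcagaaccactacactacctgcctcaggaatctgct
H19 probe 4: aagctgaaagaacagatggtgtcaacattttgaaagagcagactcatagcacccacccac
H19 probe 5: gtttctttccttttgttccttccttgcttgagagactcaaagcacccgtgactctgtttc
H19 probe 6: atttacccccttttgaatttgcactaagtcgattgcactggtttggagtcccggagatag
H19 probe 7: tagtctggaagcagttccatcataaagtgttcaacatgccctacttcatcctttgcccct
Mirg, a maternally expressed RNA that hosts many microRNAs of the Dlk1-Dio3 cluster, had 2 probes on the plus strand, at chr12:110979653-110979712 and at chr12:110987569-110987628 (mm9).
Mirg probe 1: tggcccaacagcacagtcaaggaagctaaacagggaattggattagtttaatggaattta
Mirg probe 2: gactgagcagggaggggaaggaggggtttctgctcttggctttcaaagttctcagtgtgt

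The promoter shared by Peg3 and Usp29 is shown because these paternally expressed neighbours gave unlike readings on one array. In RefSeq (GRCm38.p6), the windows around the starts of Peg3, on the minus strand at chr7:6730370-6730669, and of Usp29, on the plus strand at chr7:6730333-6730632, overlapped head to head over 263 bases. The 250 bases before each start follow, 5′ to 3′ on the strand of the gene, with each CpG, the site of DNA methylation, in capitals.
Peg3: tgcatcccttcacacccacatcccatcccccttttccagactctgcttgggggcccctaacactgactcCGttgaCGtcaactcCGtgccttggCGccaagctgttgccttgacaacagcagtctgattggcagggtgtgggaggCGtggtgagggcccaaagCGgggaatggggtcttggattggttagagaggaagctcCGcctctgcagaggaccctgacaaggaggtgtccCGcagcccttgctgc
Usp29: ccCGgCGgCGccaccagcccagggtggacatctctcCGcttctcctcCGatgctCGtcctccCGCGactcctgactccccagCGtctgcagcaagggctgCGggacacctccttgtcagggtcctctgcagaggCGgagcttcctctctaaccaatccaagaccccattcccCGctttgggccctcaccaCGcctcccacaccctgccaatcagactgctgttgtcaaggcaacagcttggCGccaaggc
Before its start Peg3 had 8 CpG and Usp29 had 14. RefSeq windows of 300 bases around the start were found for 34 of the 42 genes. The window richest in CpG held a median of 17 CpG per imprinted gene against 8 over all 27025 genes with a window. Since the imprinted genes had more windows each, the median was also taken over windows, and was 15 against 7. The letters TGCCGC, a core of the site read by the imprint-keeping zinc finger protein ZFP57, were searched on both strands and lay in a window of 10 of the 34 genes (29.4%), against 13.1% of all genes, or in 20.0% against 11.6% of the windows. A match is a description of these letters and not a measured binding site.

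Most of the imprinted genes were expressed at a measurable level in this tissue. Of the 41 genes with a probe, 39 were well above background on male 2 mg (72.4% of all symbols), on female 2 mg (70.8%) and on female 20 mg replicate 1 (77.5%), 36 on male 20 mg replicate 1 (58.9%) and 38 on male 20 mg replicate 2 (63.2%). Phlda2, which restrains growth of the placenta, and Rtl1, a retrotransposon-derived gene of the Dlk1-Dio3 cluster, were not well above background on any array. On female 20 mg replicate 2 only 24 of 41 (58.5%) were well above background, against 31.0% of all symbols. The 17 others on that array, Igf2, Peg3, Mkrn3, Peg12, Peg10 and Slc38a4 among them, thus have only an upper bound there.

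When both 20 mg/kg arrays of a sex were averaged and set against its 2 mg/kg array, few imprinted genes passed the fold rule in males and more did in females, at a rate near that of all genes. In males, 1 of the 39 genes tested, Mkrn3, was at least 2.5-fold lower after the filter on variation, and 0 were higher, where 3.15% of all genes were lower and 1.43% higher. In females, 6 were lower (Igf2, Peg3, Mkrn3, Peg12, Peg10 and Slc38a4) and 1, Mirg, was higher, where 15% of all genes were lower and 4.93% higher. In both directions together this was 17.9% of the imprinted genes and 19.9% of all genes. None of the 6 lower genes was well above background on female 20 mg replicate 2 (0 of 6), and the same held for most genes called lower, of which 6.14% of 3828 were well above background there. Without that array, 0 imprinted genes passed the fold rule in females and 2, Mkrn3 and Kcnq1, in males. The differences of Plagl1, -1.88, Peg10, -1.72, and H19, -1.34, on female replicate 1 were then past 2.5-fold. The variation filter did not keep these genes. The male count was also 2 lower without male replicate 1 or without male replicate 2, each time with 1 higher. In the plot of differences by gene, the deepest colours of the genes called in females lie in the column of female 20 mg replicate 2.

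**Figure D2:**
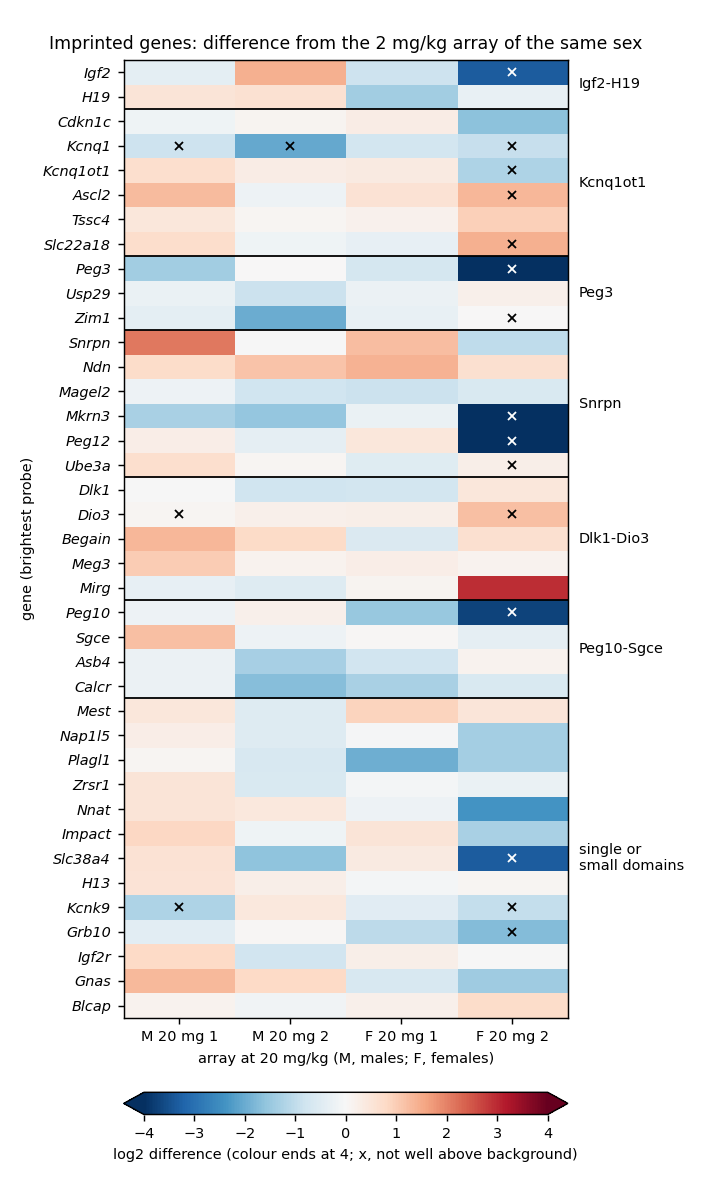
Difference in log2 signal between each 20 mg/kg array and the 2 mg/kg array of the same sex, for the brightest probe of each of the 39 imprinted genes tested, in rows by imprinted cluster (blue, lower, red, higher, colour ends at 4; a cross marks a signal not well above background). The darkest cells, Peg3, Mkrn3 and Peg12, lie on female 20 mg replicate 2 and carry a cross, while the reddest cell, Mirg on the same array, does not.

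No imprinted gene passed an adjusted p of 0.05 in limma, whether for the dose in males, the dose in females, the dose over both sexes, the difference of the dose effect between sexes, or the difference between sexes at 20 mg/kg (0 of 39 each time, with 0% of all genes called). At an unadjusted p under 0.05, 0 genes passed in males (0.239% of all genes), 1, Peg3, in females (0.513%), 0 over both sexes (0.466%), 0 for the interaction (0.164%) and 2, Nnat and Gnas, between sexes at 20 mg/kg (1.36%). The median standard error of a log2 dose difference was 1.19 within a sex, so the design could resolve only differences well beyond 2.5-fold.

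Peg3, a paternally expressed zinc finger gene with roles in growth and maternal behaviour, was at the floor on one array and well above background on the other 5. In males its log2 signal was 10.44 at 2 mg/kg and 9.05 and 10.44 at 20 mg/kg. In females it was 11.06 at 2 mg/kg, 10.35 on 20 mg replicate 1 and at the floor, 3.32, on replicate 2. The female 20 mg/kg mean of 6.83 ± 4.97 (SD, n = 2) was therefore set by the single array, and limma gave a difference of -4.23 with a standard error of 2.00, unadjusted p = 0.0468 and adjusted p = 1. Set against the weakest signal that counted as well above background on replicate 2, the array held at least 4.72-fold less Peg3 signal than female 2 mg. A second Peg3 probe was also at the floor there, but in males it was higher at 20 mg/kg, with 6.02 and 7.11 against 5.64. Without female 20 mg replicate 1, Peg3 was lower in females than in males at 20 mg/kg with adjusted p = 0.0419 in limma, a call that rests on the array that stood apart, and the lowest adjusted p of an imprinted gene in this contrast lay between 0.972 and 1 in the other settings.

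Usp29, a ubiquitin protease gene transcribed from the other side of the promoter printed above, did not follow Peg3. It read 12.85 at 2 mg/kg and 12.61 and 13.05 at 20 mg/kg in females, so that on replicate 2 it lay 0.21 above the 2 mg/kg array. In males it read 12.95 at 2 mg/kg and 12.67 and 12.08 at 20 mg/kg, below the 2 mg/kg array on both. Zim1, the maternally expressed zinc finger gene of the same cluster, was 1.98 lower on male replicate 2 but 0.38 lower on male replicate 1. All 3 genes of the cluster had a male mean below the 2 mg/kg array, with a median of -0.70 on the log2 scale against -0.07 over all genes.

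**Figure D3:**
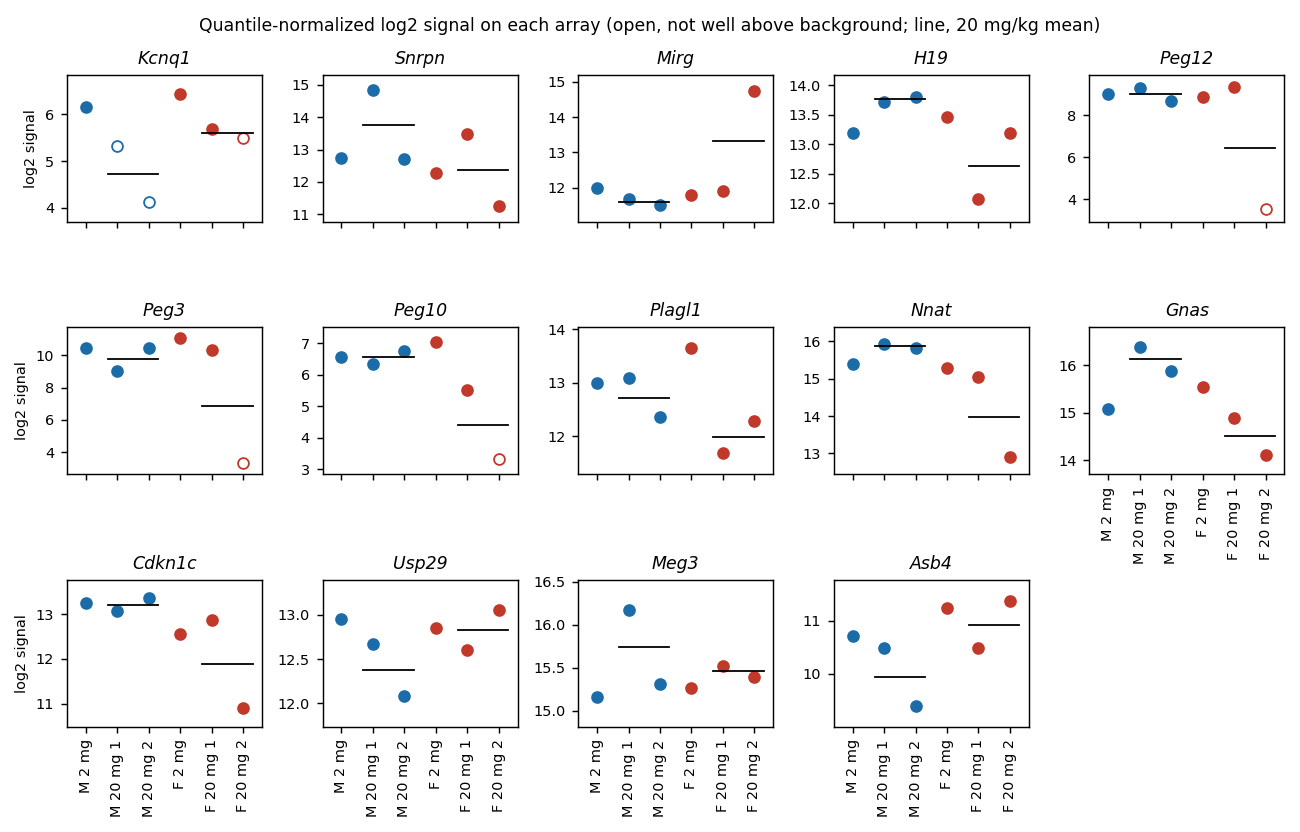
Quantile-normalized log2 signal of 14 imprinted genes on each of the 6 arrays (M, males in blue, F, females in red; open circles are not well above background, horizontal lines are the 20 mg/kg means of 2 arrays). For Peg3, Peg12 and Peg10 the female mean falls between 1 array near the 2 mg/kg reading or below it and 1 open circle near the floor of 3.32, whereas Plagl1 was lower than 13.65 on both female 20 mg/kg arrays.

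At the Igf2-H19 locus the sexes moved in opposite directions for H19. Its brightest probe, probe 7, read 13.20 at 2 mg/kg and 13.72 and 13.79 at 20 mg/kg in males, and 13.47 at 2 mg/kg and 12.07 and 13.18 at 20 mg/kg in females. Both male 20 mg/kg arrays lay above their 2 mg/kg array and both female ones below, although the sign on female replicate 2 turned under scaling to a common 75th percentile. The dose difference was 0.56 in males and -0.84 in females, each with a standard error of 0.95 and adjusted p = 1 in limma. The 7 probes printed above allow a closer look. On male replicate 2 all 7 were higher than on male 2 mg, by 0.60 to 2.29, and on male replicate 1, 6 of 7 were. On female replicate 1 all 7 were lower than on female 2 mg, by between -0.05 and -1.40. On female replicate 2 the probes disagreed, from -2.85 to 2.20, with 5 of 7 well above background.

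Igf2, the paternally expressed insulin-like growth factor that drives fetal growth, had 1 probe. It read 8.99 at 2 mg/kg and 8.60 and 10.39 at 20 mg/kg in males. In females it read 8.92 at 2 mg/kg, 8.10 on 20 mg replicate 1 and 5.59 on replicate 2, a reading that did not count as well above background and was at least 1.07-fold lower. Igf2 and H19 were thus both higher on male replicate 2 and both lower on female replicate 1. Male replicate 2 also had the highest summed signal of 8 endothelium and pericyte markers, 25685 against 3347 to 12325 on the other arrays, although the median marker there was 0.27 lower than on male 2 mg. Most of that sum came from a single marker, Kdr, the receptor for vascular growth factor. It read 14.28 there against 11.83 on male 2 mg, so the sum does not stand for the list as a whole. The part of these cells in the Igf2 and H19 readings was not tested. Among 12 genes for receptors, binding proteins and signal carriers of insulin-like growth factors, 0 were past 2.5-fold in the male mean and 4 were lower in the female mean (15% of all genes), with 6 of 12 well above background on female replicate 2, and 0 passed limma.

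**Figure D4:**
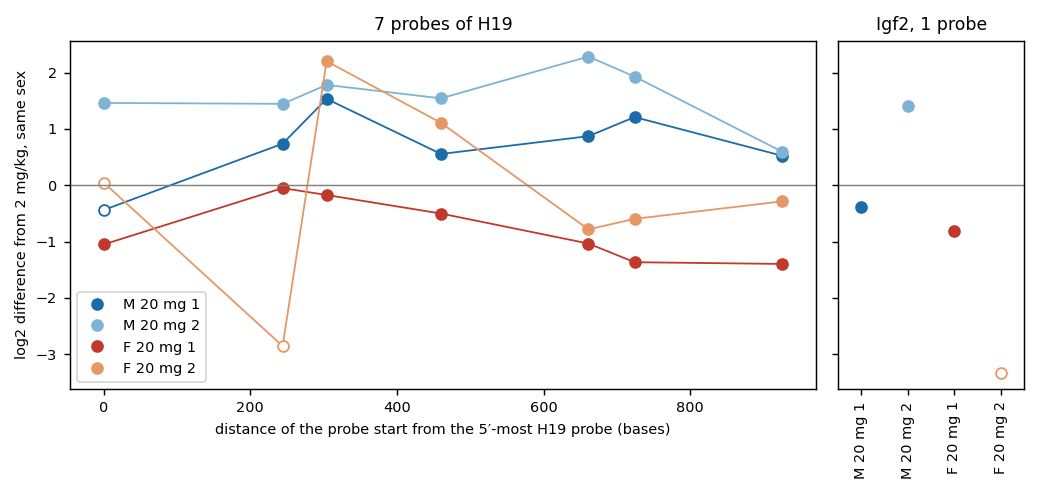
Difference in log2 signal from the 2 mg/kg array of the same sex for the 7 H19 probes, by distance in bases from the most 5′ probe, and for the single Igf2 probe (filled, well above background, open, not). The male replicate 2 line lies between 0.60 and 2.29, and the female replicate 1 line between -1.40 and -0.05.

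The Snrpn cluster, the region lost in Prader-Willi and Angelman syndromes, did not move as a block. Snrpn, which encodes a splicing protein of neurons, read 12.72 at 2 mg/kg and 14.84 and 12.71 at 20 mg/kg in males, and 12.27 at 2 mg/kg and 13.49 and 11.24 at 20 mg/kg in females. It was 2.12 higher on male replicate 1 and level with the 2 mg/kg array on male replicate 2, so its male mean difference of 1.05 with a standard error of 1.11 was not larger than the spread between the arrays (adjusted p = 1 in limma). Male replicate 1 was also the male array with the highest forebrain marker sum, and a part of forebrain tissue in the Snrpn readings was not tested. These readings are from the brightest of 3 Snrpn probes, which did not share a direction on any array at 20 mg/kg. The mean over the probes gave a male difference of 0.51. Ndn, encoding necdin, a protein of postmitotic neurons, had 1 probe and was higher on all 4 arrays at 20 mg/kg, by 0.73 and 1.15 in males and by 1.39 and 0.65 in females. Its difference over both sexes was 0.98 with a standard error of 0.70 (unadjusted p = 0.178). On the shared slide, however, Ndn on female 20 mg replicate 1 was 0.48 above male 2 mg, and female 2 mg was 0.91 below male 2 mg, so the female difference was smaller against the male array of that slide.

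Mkrn3, a ubiquitin ligase gene that holds back puberty, and Magel2, a regulator of ubiquitin ligases in hypothalamic neurons, were lower on all 4 arrays. Mkrn3 read 9.97 at 2 mg/kg and 8.68 and 8.44 at 20 mg/kg in males, a mean difference of -1.41 with a standard error of 2.04. In females it read 10.12, then 9.86 and, not well above background, 3.72, which is at least 2.46-fold lower. Its second probe disagreed in males, with 9.13 at 2 mg/kg and 9.72 and 8.40 at 20 mg/kg. On female replicate 1 the second Mkrn3 probe did not share the lower reading either. Magel2 was 0.19 and 0.81 lower in males and 0.86 and 0.60 lower in females.

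Peg12, which encodes a protein that binds the kinase GSK3, read 9.02 at 2 mg/kg and 9.29 and 8.68 at 20 mg/kg in males. In females it read 8.87 at 2 mg/kg, 9.34 on 20 mg replicate 1 and 3.52 on replicate 2, a signal not clear of the background. The bound there was at least 1.04-fold lower, and without that array its female difference was 0.47 in the other direction. A second, dimmer Peg12 probe was not well above background on that array either, at 7.87. Ube3a, the ubiquitin ligase of Angelman syndrome, which neurons express from the maternal allele, was 0.67 and 0.09 higher in males and 0.49 lower on female replicate 1, and was not well above background on replicate 2.

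In the Dlk1-Dio3 cluster Meg3 and Mirg lay within 1.01 of the 2 mg/kg array by their brightest probe, apart from Mirg on female replicate 2. Meg3, a maternally expressed noncoding RNA, read 15.16 at 2 mg/kg and 16.18 and 15.31 at 20 mg/kg in males, and 15.27 at 2 mg/kg and 15.52 and 15.40 at 20 mg/kg in females. The small rise on female replicate 2, 0.13, turned under 3 of 5 other scalings, and that on male replicate 2, 0.15, under 1. The other 2 Meg3 probes were 2.15 and 0.77 lower on female replicate 2, and 0.55 and 0.42 lower on male replicate 2. Mirg probe 2, the brighter, read 12.00 at 2 mg/kg and 11.68 and 11.50 at 20 mg/kg in males, and 11.80 at 2 mg/kg, 11.90 on 20 mg replicate 1 and 14.74 on replicate 2 in females. The female difference of 1.52 with a standard error of 1.12 (adjusted p = 1 in limma) thus came from 1 array. Mirg probe 1 did not share it, reading 11.99 at 2 mg/kg and 12.17 and 12.21 at 20 mg/kg in females. On replicate 2 the probes therefore gave differences of 2.94 and 0.22 for the same RNA. Of the protein-coding members, Begain, a gene of the synapse, was 1.34 and 0.77 higher in males and 0.58 lower and 0.63 higher in females, and Dlk1, a ligand related to Notch ligands, was within 0.80 of the 2 mg/kg array on each.

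In the Kcnq1ot1 cluster Kcnq1, a potassium channel gene with a signal near background, was lower on both male 20 mg/kg arrays and on female replicate 1. It read 6.16 at 2 mg/kg and 5.32 and 4.12 at 20 mg/kg in males, and 6.43 at 2 mg/kg and 5.69 and 5.49 at 20 mg/kg in females. It was well above background on both 2 mg/kg arrays and on female replicate 1 only. In males it was at least 2.14-fold lower at 20 mg/kg, with limma giving a difference of -1.44, a standard error of 1.89 and adjusted p = 1. Its second probe, which starts 9 bases further along and so repeats almost the same sequence, read 5.70 and then 4.42 and 3.75 in males. On female replicate 2 no direction can be given for Kcnq1, as the weakest signal well above background there, 8.82, lay above the female 2 mg reading. Kcnq1ot1, the paternally expressed antisense RNA that silences the cluster, was 0.68 and 0.29 higher in males and 0.35 higher on female replicate 1. On female replicate 2 it was not well above background and at least 1.26-fold lower. These readings are from the brighter of its 2 probes. The other ran the opposite way on both male arrays, with male mean differences 2.10 apart. Cdkn1c, a maternally expressed inhibitor of the cell cycle, read 13.25 at 2 mg/kg and 13.07 and 13.35 at 20 mg/kg in males, and 12.56 at 2 mg/kg and 12.87 and 10.91 at 20 mg/kg in females. Tssc4 was within 0.94 of the 2 mg/kg array on each array. Slc22a18 was 0.69 higher and 0.18 lower in males and 0.34 lower on female replicate 1, Ascl2 was 1.27 higher, 0.21 lower and 0.58 higher on the same arrays, and neither was well above background on female replicate 2.

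In the Peg10-Sgce cluster, Peg10, a retrotransposon-derived gene needed by the placenta, was lower on female replicate 1. In females it read 7.02 at 2 mg/kg and 5.50 on 20 mg replicate 1, and on replicate 2 it was at the floor, where the weakest signal well above background lay at 8.82, so no direction can be given on that array. In males it read 6.55 at 2 mg/kg and 6.35 and 6.74 at 20 mg/kg. Its neighbour Sgce, which encodes a sarcoglycan and starts next to it, was 0.04 higher and 0.37 lower in females. Calcr, the maternally expressed calcitonin receptor gene, was 0.22 and 1.70 lower in males and 1.31 and 0.61 lower in females. Asb4, a ubiquitin ligase adaptor, read 10.71 at 2 mg/kg and 10.48 and 9.40 at 20 mg/kg in males, and 11.24 at 2 mg/kg and 10.48 and 11.38 at 20 mg/kg in females. A second, dimmer Asb4 probe ran the opposite way on male replicate 2 alone, where it was 1.18 higher. The mean over the Asb4 probes gave -0.12 in males and 0.36 in females.

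Plagl1, a paternally expressed zinc finger transcription factor gene that restrains cell growth, was past 2.5-fold lower on both female 20 mg/kg arrays and well above background on all 6 arrays. By their readings alone 2 of 39 imprinted genes, Plagl1 and Peg10, were lower past 2.5-fold on both (1.5% of all genes), and 1 of the 24 that were well above background on all 6 arrays, Plagl1 (0.652% of such genes). Plagl1 read 13.65 at 2 mg/kg and 11.68 and 12.29 at 20 mg/kg in females, and 12.99 at 2 mg/kg and 13.09 and 12.36 at 20 mg/kg in males. The female difference was -1.66 with a standard error of 0.97 (unadjusted p = 0.100, adjusted p = 1 in limma). On female replicate 2 the difference of -1.36 was close to the 2.5-fold limit. Under 5 other scalings it lay between -1.37 and -0.78, so it did not stay past the limit in all. Probes also disagreed on replicate 2. A second bright probe read 13.37, 11.22 and 10.46 in females, whereas 2 dimmer probes read 7.63, 7.74 and 11.19, and 6.74, 6.57 and 10.66. Female replicate 1 was 1.31 below male 2 mg on the same slide, and female 2 mg was 0.65 above male 2 mg.

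Nnat and Gnas were the pair that differed between the sexes at 20 mg/kg at an unadjusted p under 0.05. Nnat, encoding the membrane protein neuronatin of developing brain, read 15.41 at 2 mg/kg and 15.93 and 15.84 at 20 mg/kg in males, and 15.28 at 2 mg/kg and 15.06 and 12.89 at 20 mg/kg in females. Females were 1.91 below males at 20 mg/kg on the log2 scale (the difference coded as female minus male was -1.91, with a standard error of 0.80, unadjusted p = 0.0255 and adjusted p = 1 in limma). A second Nnat probe read 16.81 and 14.78 in males and 15.08 and 14.34 in females at 20 mg/kg, with overlapping groups. Gnas, encoding the G protein subunit that couples receptors to cyclic AMP, read 15.08 at 2 mg/kg and 16.39 and 15.87 at 20 mg/kg in males, and 15.53 at 2 mg/kg and 14.89 and 14.12 at 20 mg/kg in females. The sex difference at 20 mg/kg was -1.63 with a standard error of 0.73 (unadjusted p = 0.0380 and adjusted p = 1 in limma), while female 2 mg was 0.45 above male 2 mg. The second brightest of the 4 Gnas probes read 13.98 and 13.18 in males and 13.63 and 14.75 in females at 20 mg/kg, again with overlap.

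Grb10, an adaptor that dampens insulin signalling, was 1.05 lower on female replicate 1 and not well above background on replicate 2. Slc38a4, an amino acid transporter gene called lower in females, was 0.34 higher on female replicate 1, 0.59 higher and 1.60 lower in males, and at the floor on female replicate 2. Kcnk9, a potassium channel gene, was at least 1.93-fold lower on male replicate 1, and 0.42 higher on male replicate 2. H13, a signal peptide peptidase gene, had 4 probes that disagreed. Its brightest was within 0.53 of the 2 mg/kg array on each array. Of the other 3, none well above background on female replicate 2, one read 10.23 at 2 mg/kg, 9.89 on female replicate 1 and the floor on replicate 2, at least 2.65-fold lower there, and another was 1.44 lower on male replicate 2 and 0.89 higher on female replicate 1. Igf2r, the receptor that clears Igf2, had 1 probe and was within 0.79 on each array.

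By single array, the number of imprinted genes past 2.5-fold differed widely. Against the 2 mg/kg array of the same sex, 3 of 39 were past it on male replicate 1 (19.4% of all genes), 6 on male replicate 2 (18.0%), 4 on female replicate 1 (4.19%) and 14 on female replicate 2 (51.1%). On female replicate 2, 5 of the 12 lower ones were well above background, against 14.5% of all genes past 2.5-fold lower there. The 4 on female replicate 1, from the slide shared with its control, were H19, Peg10 and Plagl1, lower, and Ndn, higher. Against male 2 mg on that slide, female replicate 1 had 1 imprinted gene past 2.5-fold, Calcr (2.93% of all genes), and the 2 mg/kg arrays differed from each other at 0 (1.44%). Between replicates at 20 mg/kg, 10 of 39 imprinted genes differed by 2.5-fold or more in males (37.3% of all genes) and 13 in females (51.9%).

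By their readings, the imprinted genes in the same direction on all 4 arrays at 20 mg/kg were 4 lower (Kcnq1, Magel2, Mkrn3 and Calcr) and 4 higher (Tssc4, Ndn, Dio3 and Meg3), 20.5% of the 39 against 11.3% of all genes. This counts readings not well above background, for Kcnq1 on 3 of the 4 arrays, for Dio3 on 2 and for Mkrn3 on 1. The 20 mg/kg arrays of a sex share their 2 mg/kg array, so their directions are not independent. Among the 24 imprinted genes well above background on all 6 arrays, 2 were lower (Magel2 and Calcr) and 3 higher (Tssc4, Ndn and Meg3), 20.8% against 11.4% of such genes. The dimmer Meg3 probes, however, were lower on each replicate 2 array. Under 5 other scalings, Magel2, Mkrn3, Calcr and Ndn kept their direction on every array, and the other 4 did not. Another 4 genes (10.3%, against 9.57% of all genes) moved in opposite directions in the sexes on every array. These were H19, Nnat and Gnas, up in males and down in females, and Mirg, down in males and up in females. Gnas and Mirg kept this under the 5 other scalings. Both groups of genes go by the brightest probe. The second Mkrn3 probe did not share the lower reading on male replicate 1 or on female replicate 1. With the mean over probes, Gnas differed by 0.18 in males and by -0.04 in females. Mirg probe 1 was 0.05 higher on male replicate 1. No gene of either group passed limma.

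Grouped by the expressed allele, the gap between the medians of paternally and maternally expressed genes varied between arrays. On male replicate 1 the median difference was 0.27 for 21 paternally expressed and -0.18 for 13 maternally expressed genes, on male replicate 2 it was -0.20 and -0.18, and for the male mean -0.04 and -0.04. Over the genes well above background on male replicate 1 and on male 2 mg, the order was the opposite, 0.36 for 20 paternally and 0.45 for 11 maternally expressed genes. On female replicate 1 it was -0.08 and -0.30, and 0.01 over all genes. On female replicate 2 it was -1.25 for the paternally and 0.09 for the maternally expressed genes, and -0.36 over all genes. Readings there were past 2.5-fold lower for 9 of 21 and 1 of 13, against 32.6% of all genes. Readings not well above background there give no fold of their own. Of these genes, 13 of 21 and 8 of 13 were well above background on that array, with 3 and 1 past 2.5-fold lower. Over all genes well above background on it and on female 2 mg, 1204 of 10612 were past 2.5-fold lower. The medians over the 13 and the 8 genes were -0.37 and 0.11, against 0.44 over all such genes. These medians are descriptions of lists and were not tested.

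**Figure D5:**
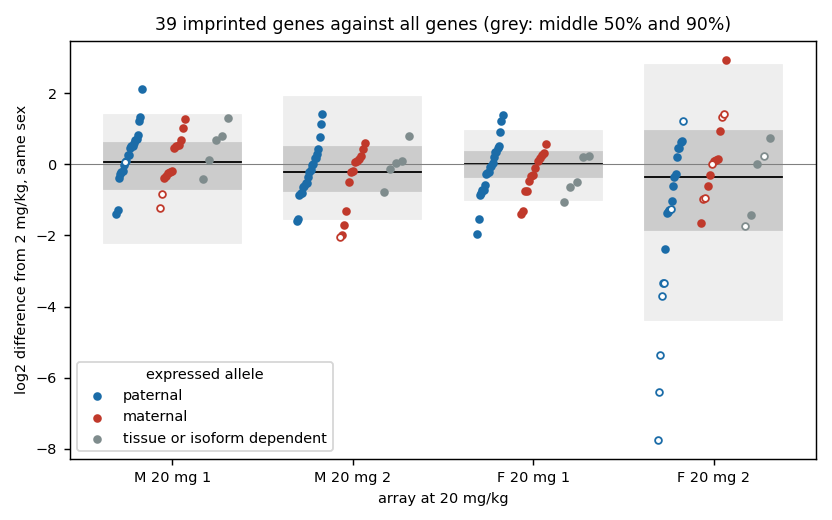
Difference in log2 signal from the 2 mg/kg array of the same sex for 39 imprinted genes on each 20 mg/kg array, coloured by the expressed allele (filled, well above background, open, not), over the middle 50% and 90% of all genes in grey with their median as a line. The points lowest on female replicate 2 are open, so their readings give only a bound, and belong to paternally expressed genes.

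Where a gene had several probes, the probes often disagreed. Of 21 imprinted genes with 2 or more probes in the test, all probes had the same direction of the mean difference for 8 genes in males and 9 in females. The factors that keep or erase imprints did not pass limma either (0 of 17 tested). By the 2.5-fold rule 1 of them was lower in the male mean (3.15% of all genes) and 3 in the female mean (15%), with 12 of 19 well above background on female replicate 2. Zfp57, whose protein binds methylated imprint control regions, read 9.13 at 2 mg/kg and 8.02 and 12.21 at 20 mg/kg in males, and 9.59 at 2 mg/kg and 8.36 and 11.41 at 20 mg/kg in females, lower on each replicate 1 and higher on each replicate 2. Dnmt1, which copies DNA methylation at cell division, read 9.49 at 2 mg/kg and 10.60 and 8.87 at 20 mg/kg in males, and 9.70 at 2 mg/kg, 9.46 on female replicate 1 and 8.12, not well above background, on replicate 2. Among 23 further imprinted genes in the test, 1 was lower in the male mean (3.15% of all genes), 5 were lower (15%) and 2 higher (4.93%) in the female mean, with 10 well above background on female replicate 2, and 0 passed limma.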

How the data were processed

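RNA of 6 pooled cerebellum samples was measured on one-colour Agilent arrays and grouped by sex and FA dose from the labels. The intensities deposited by the authors are processed signals from Agilent Feature Extraction 10.7.3.1, background-subtracted and not scaled between arrays, beside mean and local background brightness and software flags. The deposited log2 value table, quantile normalized and floored by the authors in BRB-ArrayTools, served as an alternative. Here outlier spots were left out, spots of a probe averaged, and, as the methods name, log2 values quantile normalized over 6 arrays and given a floor of 10 (log2 3.32), set after normalization. Quantile normalization forces one distribution on arrays of unequal brightness, which moves dim readings most. Each symbol was represented by its brightest probe. Probes well above background on at least 2 arrays, 37257 of 55681, entered limma 3.58.1 (R 4.3.3) with 4 groups of sex and dose, 2 residual degrees of freedom and Benjamini-Hochberg adjustment over the 37211 of them with a value, after tests on simulated data. The fold rule was 2.5-fold after the methods' filter on variation (p of 0.05). "At least" folds use the lowest signal well above background on the array. Arrays have no counting depth, and their number limits the precision. Genes described in full were those the study names, those past 2.5-fold on both 20 mg/kg arrays of a sex, those at unadjusted p under 0.05 and the brightest of each cluster; others were named after their values were seen. Members and lists were chosen with earlier results of these data known. Probe coordinates are mm9 and promoters RefSeq GRCm38.p6.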

Additional observations from a re-analysis of the deposited data

How the results depend on the processing

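limma called 0 imprinted genes in each of the 5 contrasts under every alternative except 1, where leaving out female 20 mg replicate 1 gave 1 for the sex difference at 20 mg/kg. Counts past 2.5-fold moved. The 1 gene lower in males became 0 with the common 75th percentile, with normexp, with mean brightness and with the mean over probes, 2 with the floor set before normalization or no variation filter, 5 with the later scan day alone, and 1 to 2 when 1 array was left out. The 0 higher in males became 1 at 2-fold and 1 on the later scan day, and 0 to 1 with 1 array left out. The 6 lower in females became 0 with the common 75th percentile, 3 with mean brightness, 3 on the later scan day, and 0 to 7 with 1 array left out. The 1 higher in females became 0 with the common 75th percentile and 0 with the mean over probes. With 1 array left out it was 0 to 1. The 0 counts in females under the common 75th percentile came after the variation filter. There Mirg, at 2.03, Peg3, at -2.53, and Plagl1, at -1.39, were past 2.5-fold in females. Peg12, at -0.83, and Peg10, at -1.05, were not. The common 75th percentile put the female median of all probes at 0.45, against -0.21. Peg12 in females, at -2.44, moved to -5.14 without female 20 mg replicate 1 and turned to 0.47 without female 20 mg replicate 2 and to 0.46 on the later scan day. The causes were not tested. The 20 mg/kg arrays share only a replicate number (correlation of their deviations 0.087); with the replicate block, 0 imprinted genes and 13 of all probes differed between sexes, against 0 without. Leaving out a 2 mg/kg array leaves that sex without a control, so this was not run. With normalization over the 5 arrays other than female 20 mg replicate 2, no difference of female replicate 1 or of the male mean changed sign, and none moved by more than 0.25. Signal over background limits readings on female 20 mg replicate 2.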
